A study of Saccharomyces cerevisiae with 10 samples.

Results

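Deletion strains of 9 yeast regulators of respiratory growth were followed through peroxide treatment in a pool of haploid deletion mutants. The strains were picked by gene symbol, with earlier results of these data known. They were HAP2, HAP3, HAP4 and HAP5, ADR1, CAT8, RSF1, SNF1 and SNF4, out of 4625 strains measured. In Saccharomyces cerevisiae the DNA-binding subunits Hap2, Hap3 and Hap5 and the activating subunit Hap4 form 1 activator, which switches on genes of the respiratory chain and the TCA cycle when glucose runs low. Snf1 is the yeast counterpart of the mammalian AMP-activated kinase, and Snf4 is the gamma subunit of the Snf1 kinase. Together they release genes from glucose repression. Adr1 and Cat8 are activators that act downstream of this kinase, and Rsf1 is a regulator needed for growth on glycerol.

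Each strain carries barcode tags in place of its deleted gene, so that its share of the pool can be read on a two-colour barcode array. On 6 arrays an adapted portion of a culture, given 0.1 mM hydrogen peroxide for 45 min and then 0.4 mM for 1 h, was set against an acute portion of the same culture, given a sham pretreatment and then the same high dose. On 4 arrays an acute portion, given 0.4 mM for 1 h, was set against an untreated portion, neither of them pretreated. All portions grew for 5 h in fresh YPD, a rich glucose medium, before DNA was taken. Every strain is a haploid with 1 gene deleted, so another mutation carried by a strain cannot be told apart from its deletion. Survival and regrowth cannot be told apart either, since both change a strain's share.

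The adapted portion carried Cy5 where it was set against the acute portion, and the acute portion where it was set against the untreated, with no dye swaps, so that dye and treatment cannot be told apart. A log ratio above 0 marks a strain that was more common in the adapted than the acute portion, or in the acute than the untreated portion. Values were read as natural log ratios; no source used here states the log base. The strains of YAP1 and SKN7, textbook activators of the peroxide response, had adapted means of −0.40 and −0.51 and acute means of −1.64 and −1.49. The overall direction was taken from the order of the study's own table, so these signs are no separate check of it. Between arrays, correlations over all measured spots ran from −0.283 to 0.526 in adapted over acute and from −0.17 to 0.472 in acute over untreated. The tags of a strain correlated weakly, with r from 0.0728 to 0.221 on the 10 arrays, so the values of each tag are given beside the mean. Precision of every mean is limited by the number of arrays.

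Only 2 of the 9 strains passed the threshold of an unadjusted p of 0.005 by limma, each in 1 comparison. The HAP3 strain was called higher in adapted over acute by limma, and no regulator strain lower. Of all strains, 1.25% were called higher and 1.54% lower in that comparison. The SNF1 strain was called higher in acute over untreated and none lower, while 0.951% of all strains were called higher and 2.66% lower. No regulator strain passed a Benjamini-Hochberg adjusted p of 0.05 in either comparison, where 0.0216% of all strains were higher and 0% lower in adapted over acute, and 0% higher and 0.0649% lower in acute over untreated. At an unadjusted p of 0.05, limma counted 2 higher (HAP3 and HAP5) and 1 lower (SNF1) in adapted over acute, and 1 higher (SNF1) and 2 lower (HAP3 and HAP5) in acute over untreated. Over all strains at that p, 4.45% were higher and 6.38% lower in adapted over acute, and 5.75% were higher and 6.90% lower in acute over untreated.

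**Figure D1:**
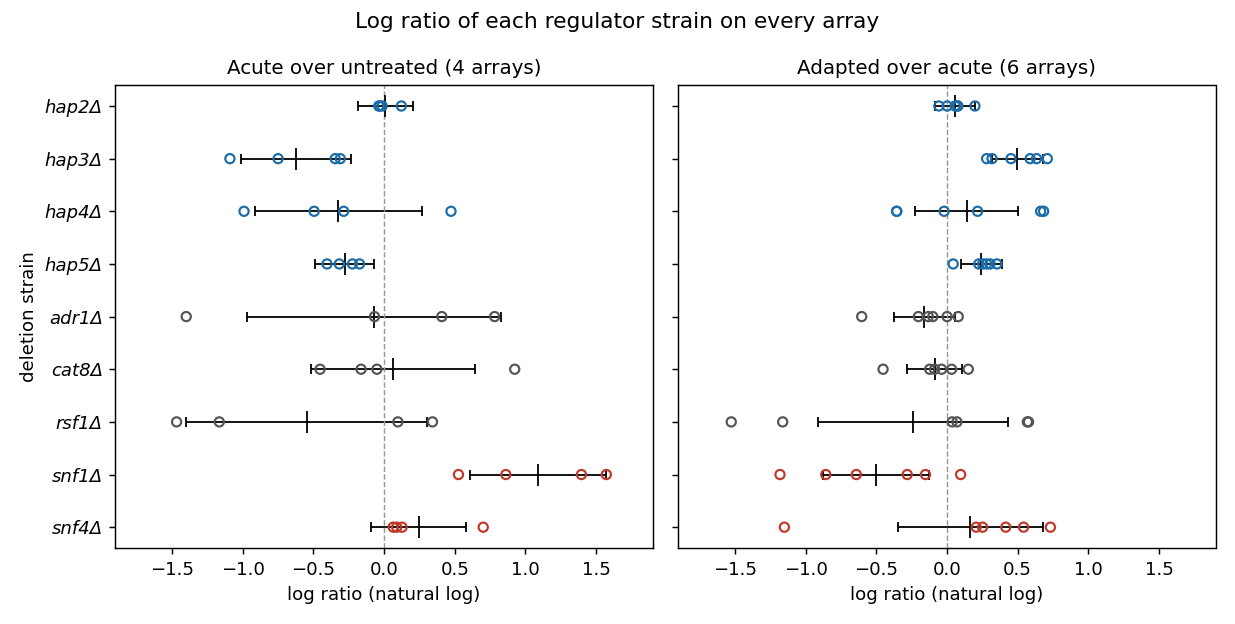
Log ratio (natural log) of each of the 9 regulator strains on every array, with acute over untreated on the left (4 arrays) and adapted over acute on the right (6 arrays). Circles are arrays, vertical ticks are means and bars are 95% confidence intervals from limma. The hap3Δ circles lie below 0 on all acute arrays and above 0 on all adapted arrays, and the snf1Δ circles lie above 0 on all acute arrays.

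The HAP3 strain, which lacks a DNA-binding subunit of the Hap complex, was more common after pretreatment on every adapted array. Its log ratios in adapted over acute were 0.453, 0.710, 0.319, 0.281, 0.589 and 0.634 on replicates 1 to 6, all above 0. The mean was 0.50 ± 0.175 (SD, n = 6), with a 95% confidence interval from 0.319 to 0.677, an unadjusted p of 2.011e-04 and an adjusted p of 0.0761 (limma). This mean ranked 16 from the highest of 4625 strains. In acute over untreated the same strain stood at −1.090, −0.345, −0.749 and −0.309, below 0 on each array and lowest on replicates 1 and 3. The acute mean of −0.62 ± 0.370 (SD, n = 4) did not pass the threshold, at an unadjusted p of 0.00832 and an adjusted p of 0.177 (limma). It passed without quantile normalization, with a mean of −0.53 and an unadjusted p of 0.00215 (limma).

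Both tags of the HAP3 strain gave the same sign on all 10 arrays. Before quantile normalization its first tag read −0.8287, −0.5495, −0.5585 and −0.4684 on the acute arrays, and its second tag −0.6789, −0.3011, −0.6391 and −0.3376. On the adapted arrays the first tag lay between 0.167 and 0.7595 and the second between 0.2659 and 0.647. Each tag alone passed the threshold in adapted over acute, at an unadjusted p of 0.00407 for the first and 1.73e-04 for the second (limma). The call also held when any 1 adapted array was left out, with means from 0.45 to 0.54. Counting HAP3 itself, 127 strains had an acute mean as low as its own, 16 had an adapted mean as high, and 11 had both.

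The HAP5 strain, which lacks another DNA-binding subunit, had the same signs as HAP3, with smaller means when its tags were averaged. Its log ratios were 0.354, 0.305, 0.044, 0.225, 0.253 and 0.281 in adapted over acute, above 0 on all arrays and nearest 0 on replicate 3. On the acute arrays they were −0.173, −0.403, −0.223 and −0.316, all below 0. The HAP5 strain lay below HAP3 on 2 of these 4 arrays, replicates 2 and 4, and above it on 2. The adapted mean of 0.24 ± 0.107 (SD, n = 6) had an unadjusted p of 0.00509 and an adjusted p of 0.181 (limma), just outside the threshold. It ranked 174 from the highest. The acute mean of −0.28 ± 0.102 (SD, n = 4) had an unadjusted p of 0.0172 and an adjusted p of 0.240 (limma). Without adapted replicate 3 the HAP5 strain passed in adapted over acute, with a mean of 0.27 and an unadjusted p of 0.00354 (limma).

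The departure of the HAP5 strain from 0 came from its second tag. That tag read −0.397, −1.0034, −0.2655 and −0.6529 on the acute arrays and between 0.2063 and 0.5883 on the adapted arrays. The first tag stayed between −0.1732 and 0.1551 on all 10 arrays, and its spread on the acute arrays was smaller than that of most strains (percentile 15.4 of the SD over all first tags). Taken alone, the second tag passed the threshold in adapted over acute with a mean of 0.49 and an unadjusted p of 5.909e-04 (limma), while the first tag gave 0.03 and an unadjusted p of 0.750. Which of the tags follows the strain was not tested. Both HAP5 tags lie on the part of the array whose sign was turned, and with every deposited sign kept the adapted value was −0.26.

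The HAP4 strain lacks the activating subunit, the one whose level follows the carbon source. Its log ratios were −0.356, −0.355, 0.217, 0.663, 0.684 and −0.020 in adapted over acute, 3 of them above 0 and 3 below. Relative to the untreated portion they were 0.474, −0.285, −0.494 and −0.990, with replicate 1 alone above 0. The mean was 0.14 ± 0.468 in adapted over acute (SD, n = 6; unadjusted p of 0.409) and, in acute over untreated, −0.32 ± 0.609 (SD, n = 4; unadjusted p of 0.224), neither past the threshold (limma). The adapted mean was 0.0165 without adapted replicate 4, 0.0239 without adapted replicate 5 and 0.258 without adapted replicate 1. The acute mean was −0.65 without acute replicate 1 and −0.06 without acute replicate 4.

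Most of that spread lay in the first tag of the HAP4 strain. On the acute arrays the first tag read 1.2882, −0.3911, −0.3411 and −2.563, an SD at percentile 94.5 of all first tags, whereas the second tag read −0.4104, −0.3325, −0.4159 and −0.1851. On the adapted arrays the first tag ran between −1.2004 and 1.6518, with replicates 1 and 2 lowest and replicate 4 highest, and the second tag between −0.0288 and 0.3752. The same arrays went against each other over the whole first tag set, where acute replicates 1 and 4 had an r of −0.2785 and adapted replicates 2 and 4 an r of −0.4514. The part of this in the HAP4 values was not tested. With the second tag alone the means were 0.22 in adapted over acute (unadjusted p of 0.0347) and −0.35 in acute over untreated (unadjusted p of 0.0192), with the signs of HAP3 and HAP5 but outside the threshold (limma).

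The HAP2 strain, without the subunit that completes the DNA-binding core, stayed close to 0. It read −0.057, 0.058, 0.001, 0.073, 0.198 and 0.078 in adapted over acute, and −0.037, −0.030, −0.013 and 0.123 in acute over untreated. Its mean was 0.06 ± 0.0859 in adapted over acute (SD, n = 6; unadjusted p of 0.362) and, in acute over untreated, 0.01 ± 0.0754 (SD, n = 4; unadjusted p of 0.897) by limma. The 95% confidence intervals ran from −0.081 to 0.198 in adapted over acute and from −0.186 to 0.208 in acute over untreated. Its spread over arrays was among the smallest of all strains, at percentile 4.65 on the adapted and 6.38 on the acute arrays. Both of its tags lay between −0.1474 and 0.2799 on all 10 arrays. How bright these spots were is unknown, as intensities were not used here.

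Strains of the Hap complex were compared in pairs on each array. After pretreatment, relative to the acute portion, HAP2 was below HAP3 by a mean difference of −0.44 (0.06 for HAP2 and 0.50 for HAP3) and below HAP5 by −0.19, and HAP3 was above HAP5 by 0.25, each on 6 of 6 arrays. Each of these had an exact sign-flip permutation p of 0.03125 (two-sided, n = 6), the smallest that 6 arrays allow, and an adjusted p of 0.0625 over 8 pairs. On the acute arrays HAP2 was above HAP3 by 0.63 and above HAP5 by 0.29 on 4 of 4 arrays. The exact permutation p was 0.125 (two-sided, n = 4), the smallest that 4 arrays allow. Pairs with HAP4 did not keep 1 sign on all arrays of either comparison, nor did HAP3 and HAP5 on the acute arrays. HAP3 minus HAP5 was −0.34 there, above 0 on 2 arrays and below on 2 (exact permutation p of 0.5, two-sided, n = 4). With first tags alone the adapted difference between HAP2 and HAP5 turned to 0.03. HAP3 and HAP5 had adapted means of 0.54 and 0.03 with first tags alone, but 0.53 and 0.49 with second tags alone. Their acute means were −0.82 and −0.03 with first tags, and −0.51 and −0.58 with second tags.

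**Figure D2:**
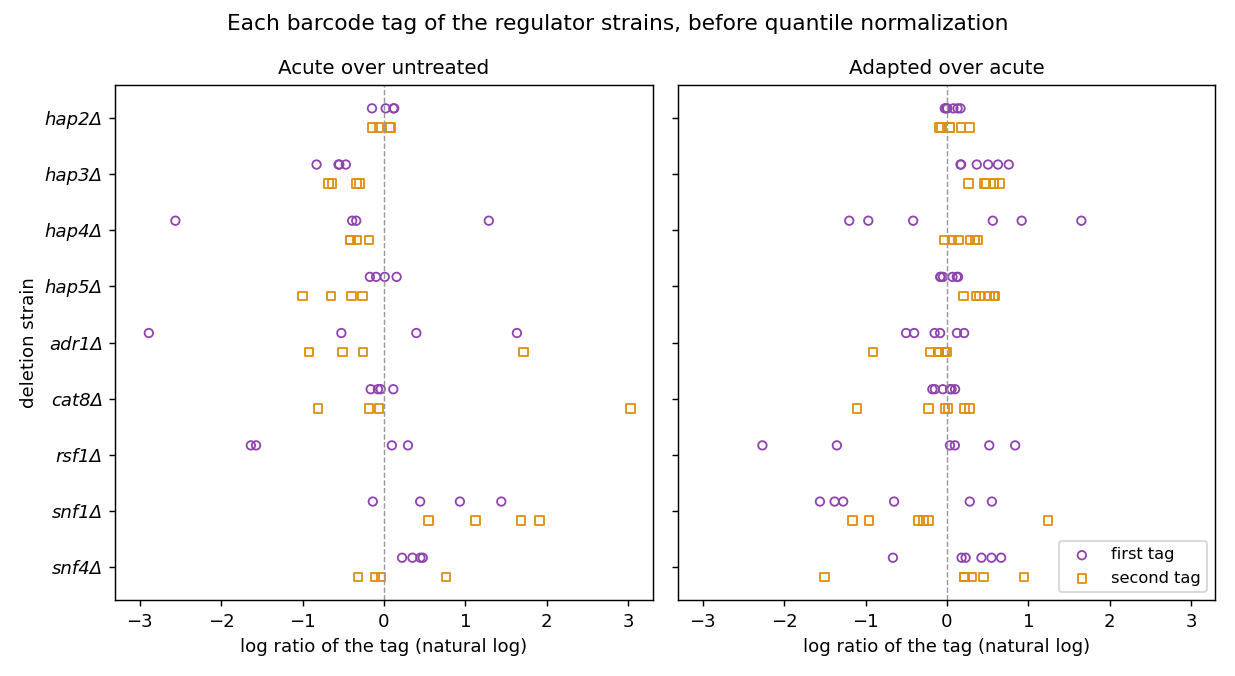
Log ratio (natural log, before quantile normalization) of each barcode tag of the regulator strains, first tags as circles and second tags as squares, 1 mark per array. The hap3Δ tags overlap in both comparisons, the hap5Δ second tag lies away from its first, and the hap4Δ and adr1Δ first tags run from below −2.5 to above 1.2 on the acute arrays. The rsf1Δ strain has a first tag only.

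The SNF1 strain, which lacks the catalytic subunit of the kinase, had the highest acute mean of all 4625 strains. It read 1.397, 0.527, 0.862 and 1.573 in acute over untreated, above 0 on all arrays and highest on replicates 1 and 4. The acute mean of 1.09 ± 0.482 (SD, n = 4) had a 95% confidence interval from 0.608 to 1.571, an unadjusted p of 0.00175 and an adjusted p of 0.0984 (limma). The call was lost without acute replicate 1, 3 or 4, at means of 1.02, 1.21 and 1.00 and unadjusted p of 0.00957, 0.00625 and 0.00505 (limma). Its adapted over acute values were −0.152, −0.281, −1.181, −0.857, −0.641 and 0.097, below 0 on 5 of 6 arrays. That mean of −0.50 ± 0.477 (SD, n = 6) ranked 40 from the lowest and missed the threshold, at an unadjusted p of 0.0145 and an adjusted p of 0.271 (limma).

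The tags of the SNF1 strain varied more between arrays than those of most strains. The first tag read 0.4444, −0.1373, 0.933 and 1.4418 on the acute arrays and the second 1.9106, 1.6853, 0.5498 and 1.1273. Only the first tag on acute replicate 2 fell below 0. On the adapted arrays the tags had opposite signs on replicates 1, 2 and 6, where the first tag read −1.5604, 0.2806 and 0.5522 and the second 1.2412, −1.1621 and −0.3523. Neither tag alone passed the threshold in acute over untreated, at an unadjusted p of 0.0653 for the first and 0.0121 for the second (limma).

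The SNF4 strain lacks the subunit that keeps Snf1 active when glucose is low, and its values were smaller than those of the SNF1 strain in acute over untreated. They were 0.128, 0.065, 0.702 and 0.090, above 0 on all arrays, with replicate 3 far above the others. The acute mean of 0.25 ± 0.305 (SD, n = 4) had an unadjusted p of 0.122 (limma), and was 0.0974 without acute replicate 3. In adapted over acute the strain read 0.542, 0.207, −1.150, 0.416, 0.732 and 0.252, above 0 on all arrays but replicate 3. The adapted mean was 0.17 ± 0.673 (SD, n = 6; unadjusted p of 0.476, limma). Without adapted replicate 3 it was 0.42, with an unadjusted p of 0.00318 and an adjusted p of 0.193 (limma). It was 0.0425 without adapted replicate 5. Both SNF4 tags were low on adapted replicate 3, at −0.6636 and −1.5065, and the SNF1 strain also had its lowest adapted value there.

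The strains of the kinase and of its gamma subunit were compared in the same way. SNF1 was below SNF4 on 6 of 6 adapted arrays, by a mean difference of −0.67 (−0.50 for SNF1 and 0.17 for SNF4). The exact sign-flip permutation p was 0.03125 (two-sided, n = 6), with an adjusted p of 0.0625 over the 8 pairs. On 4 of 4 acute arrays SNF1 was above SNF4, by 0.84 on average (exact permutation p of 0.125, two-sided, n = 4). Over the 10 arrays the SNF1 and SNF4 strains had an r of 0.246.

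The strains of the activators downstream of Snf1 showed no call in either comparison. The ADR1 strain, without an activator of alcohol dehydrogenase and peroxisomal genes, read −0.603, −0.132, 0.080, −0.202, 0.001 and −0.100 in adapted over acute. In acute over untreated it read 0.783, 0.409, −0.067 and −1.399, an SD of 0.953 at percentile 98.6 of all strains. Its mean was −0.16 in adapted over acute (unadjusted p of 0.127) and −0.07 in acute over untreated (unadjusted p of 0.855) by limma. As with HAP4, its first tag was high on acute replicate 1 (1.6337) and low on replicate 4 (−2.8894), and without acute replicate 4 the acute mean was 0.41.

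The CAT8 strain, without an activator of gluconeogenic genes, read −0.452, 0.033, 0.151, −0.087, −0.122 and −0.038 in adapted over acute and −0.162, 0.925, −0.452 and −0.050 in acute over untreated. Its means were −0.09 (unadjusted p of 0.341) in adapted over acute and 0.07 (unadjusted p of 0.789) in acute over untreated (limma). The value of 0.925 came from 1 tag on 1 array: the second tag read 3.0306 on acute replicate 2, where the first read −0.1635. Without that array the acute mean was −0.20. ADR1 minus CAT8 was −0.07 in adapted over acute (exact permutation p of 0.1562, two-sided, n = 6) and −0.13 in acute over untreated (exact permutation p of 0.75, two-sided, n = 4).

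The RSF1 strain was measured through its first tag only. It read −1.162, −1.526, 0.071, 0.577, 0.569 and 0.037 in adapted over acute, and 0.098, −1.467, 0.343 and −1.165 in acute over untreated, where 2 arrays lay far below 0 and 2 above it. Its mean was −0.24 ± 0.894 in adapted over acute (SD, n = 6; unadjusted p of 0.436) and, in acute over untreated, −0.55 ± 0.901 (SD, n = 4; unadjusted p of 0.163) by limma. The acute mean was −0.25 without acute replicate 2, −0.27 without acute replicate 4 and −0.89 without acute replicate 3. Its spread was at percentile 99.5 of all strains on the adapted arrays and 97.9 on the acute arrays.

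The adaptive contrast asks whether a strain gained less from pretreatment than it lost in the acute response. It is the adapted over acute mean with its sign turned, minus the acute over untreated mean, and it uses the same 10 arrays as both comparisons above. No regulator strain passed in it by limma at an unadjusted p of 0.005, and none at 0.05. Of all strains, 4.0% were above 0 and 1.54% below at an unadjusted p of 0.05. At 0.005, 1.54% were called above 0 and 0.173% below, and 0.346% were above 0 at an adjusted p of 0.05. The contrast was 0.13 ± 0.164 for HAP3, 0.18 ± 0.299 for HAP4, 0.04 ± 0.0941 for HAP5 and −0.07 ± 0.0868 for HAP2 (mean ± SE, 10 arrays). It was −0.59 ± 0.274 for SNF1 (unadjusted p of 0.0556), −0.41 ± 0.320 for SNF4, 0.79 ± 0.50 for RSF1, 0.23 ± 0.346 for ADR1 and 0.02 ± 0.233 for CAT8. Without adapted replicate 3 the SNF4 strain was called below 0, at −0.67 with an unadjusted p of 0.00252 (limma). With first tags alone the SNF1 contrast turned to 0.0946 (limma, unadjusted p of 0.867), and with second tags alone it was −1.29 (unadjusted p of 0.0410). The HAP3 contrast was 0.0228 without acute replicate 1. The methods' t-test, with a spread shared by all strains, called 1 regulator strain, RSF1, above 0 (adjusted p of 0.0230). Over all strains that test called 116 above and 12 below 0 at an unadjusted p of 0.005. Its SE for RSF1 was 0.218, against 0.50 in limma. The RSF1 strain has 1 tag only, and its spread was at percentile 99.5 on the adapted and 97.9 on the acute arrays.

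**Figure D3:**
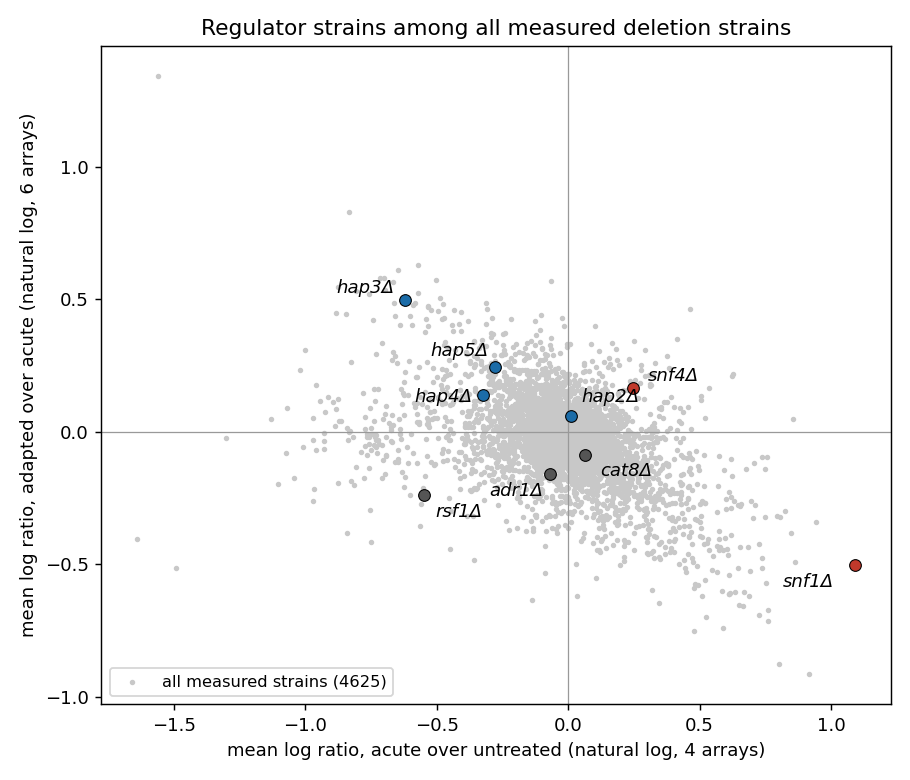
Mean log ratio (natural log) of every measured strain in acute over untreated (horizontal axis, 4 arrays) against adapted over acute (vertical axis, 6 arrays), with the 9 regulator strains labelled: Hap subunits in blue, Snf1 kinase subunits in red and the others dark grey. The hap3Δ strain lies at −0.62 and 0.50, and the snf1Δ strain at 1.09 and −0.50, the point farthest right.

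Opposite signs in the acute and the direct comparison, as in HAP3 and SNF1, also occurred in other strains. Over all strains, 26 were called lower in acute over untreated and higher in adapted over acute, and 14 were called higher in acute over untreated and lower in adapted over acute. Only 1 was called lower in both and 0 higher in both. Of all 123 strains called lower in acute over untreated, 73 had an adapted mean above 0. Of the 127 strains with an acute mean as low as that of HAP3, 66 did. Over all strains, 54.6% had an adapted mean below 0. Acute DNA is in the denominator of adapted over acute and in the numerator of acute over untreated, although on different arrays and from different cultures. The part of this in the opposite signs was not tested.

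The strains whose values over the 10 arrays were most like the mean of the 4 Hap strains, out of 4022 named strains with both tags, were those of PCL7, a cyclin of the kinase Pho85 (r of 0.966), the uncharacterised YNL095C (0.959), LPD1, dihydrolipoamide dehydrogenase (0.957), CIT1, mitochondrial citrate synthase (0.954), and GPH1, glycogen phosphorylase (0.954). Their means lay between 0.1562 and 0.4876 in adapted over acute and between −0.7097 and −0.3083 in acute over untreated. Most like HAP3 were HFA1, the mitochondrial acetyl-CoA carboxylase (0.987), MSS116, a mitochondrial RNA helicase (0.976), and IZH1, a membrane protein linked to zinc (0.974). Likeness compares the pattern over arrays and not its size: the adapted means of these 3 were 0.40, 0.09 and 0.08, and their acute means −0.64, −0.75 and −0.25. Most like SNF1 were RPS27B, a ribosomal protein (0.972), BUD31, a splicing factor (0.963), and the uncharacterised YBR284W (0.956), with adapted means of −0.49, −0.43 and −0.20 and acute means of 0.86, 0.65 and 0.29. Among the regulators themselves, HAP3 and HAP5 had an r of 0.832, HAP3 and SNF1 −0.771, HAP4 and RSF1 0.711, and HAP2 and HAP3 0.446. The other Hap pairs were lower, at 0.396 for HAP4 and HAP5 and 0.262 for HAP2 and HAP5. HAP4 had an r of 0.19 with HAP2 and 0.164 with HAP3. These correlations are descriptions over 10 arrays of 2 comparisons, which share the shift between the comparisons.

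The strains of genes that the Hap complex is known to switch on were set beside the regulators. All 4 gene lists were chosen with earlier results of these data known, so their shares are no independent test. Of 38 measured strains of respiratory chain, ATP synthase and TCA cycle genes, limma called 4 lower in acute over untreated (10.5%, against 2.66% of all strains) and 0 higher. At an unadjusted p of 0.05 they held 10 lower and 1 higher, against 6.9% lower and 5.75% higher of all strains. The methods' t-test called 7 lower and 0 higher, and limma without moderation of the spread 3 lower and 0 higher. Over all 4625 strains the first called 183 lower and 83 higher, and the second 49 lower and 21 higher. The 4 strains called by limma were QCR7 (−1.13) and QCR2 (−1.08), subunits of the cytochrome bc1 complex, CIT1 (−0.71) and LPD1 (−0.47), each below 0 on 4 of 4 arrays. The median of the 38 was −0.16, against −0.01 over all strains, and 30 of 38 means lay below 0 (78.9%, against 54.7% of all strains). On the adapted arrays CYT1, cytochrome c1 (−0.36), and RIP1, the Rieske protein of the same complex (−0.26), were called lower, and LPD1 (0.33) higher. These calls were 5.26% lower and 2.63% higher, against 1.54% and 1.25% of all strains. There were 2 lower and 3 higher at an unadjusted p of 0.05, against 6.38% lower and 4.45% higher of all strains. The methods' t-test called 0 lower and 1 higher there, and limma without moderation 2 lower and 0 higher. Over all 4625 strains the first called 136 lower and 60 higher on the adapted arrays, and the second 44 lower and 58 higher. The adapted median of the 38 was 0.01, against −0.01 over all strains.

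In the adaptive contrast 4 of these 38 strains (10.5%, against 1.54% of all strains) were called above 0: QCR2 (1.15), CYT1 (0.92), QCR7 (1.09) and QCR8 (0.85), all of the bc1 complex. QCR2 and CYT1 had adjusted p of 0.0232 and 0.0383 (limma). Neither was below 0.05 with first tags alone (0.192 and 0.641), second tags alone (0.0603 and 0.218), the replicate block (0.238 and 0.276) or no moderation (0.133 and 0.154). Leaving out 1 array at a time gave adjusted p of 0.0286 to 0.0847 for QCR2 and 0.0161 to 0.131 for CYT1 (limma). With deposited signs both contrasts turned, to −1.12 for QCR2 and −0.13 for CYT1. None of the 38 was called below 0. At an unadjusted p of 0.05 there were 8 above and 1 below, against 4.0% above and 1.54% below of all strains. The methods' t-test called 5 above and 0 below, out of 116 above and 12 below over all strains. Without moderation there were 2 above and 0 below, out of 43 above and 5 below. The Hap strains had contrasts between −0.07 and 0.18. Strains of LPD1 and CIT1 had the signs of HAP3, below 0 in the acute and above 0 in the direct comparison, whereas QCR2 and QCR7 were called only in the acute comparison and the contrast.

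The 25 strains of the Snf1 pathway and of glucose repression held 0 calls in all 3 comparisons by limma. Over all strains limma called 0.951% higher and 2.66% lower in acute over untreated, and 1.25% and 1.54% in adapted over acute. In the contrast it called 1.54% above 0 and 0.173% below, so 0 of 25 is close to these shares. At an unadjusted p of 0.05 the 25 strains held 3 higher and 1 lower in acute over untreated. They held 2 higher and 3 lower in adapted over acute, and 0 in the contrast. All strains at that p had 5.75% higher and 6.90% lower in acute over untreated, 4.45% higher and 6.38% lower in adapted over acute, and 4.0% above and 1.54% below 0 in the contrast, so 0 of 25 in the contrast is close to the background. The methods' t-test called 1 higher in acute over untreated, 1 lower in adapted over acute and 0 in the contrast. The fit without moderation of the spread called 1 lower in each of the first 2. Over all 4625 strains the methods' t-test called 83 higher and 183 lower in acute over untreated, and 60 and 136 in adapted over acute. In the contrast it called 116 above and 12 below 0. Without moderation the counts over all strains were 21 and 49, 58 and 44, and 43 and 5, in that order. The strain of REG1, the phosphatase subunit that turns Snf1 off, had an acute mean of 0.32 (unadjusted p of 0.00962), and that of ELM1, a kinase that activates Snf1, 0.27 (0.0265). The strain of HXK2, the hexokinase needed for glucose repression, had an adapted mean of −0.21, below 0 on 6 of 6 arrays (unadjusted p of 0.00582), and STD1, a partner of the glucose sensors, 0.16 (0.0271). In the contrast the lowest p were those of MTH1 (−0.23) and NRG1 (−0.13). The medians of the list were −0.06 in adapted over acute and 0.02 in acute over untreated.

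Of 18 strains of other respiratory and nonfermentative regulators, limma called 0 in any of the 3 comparisons. The methods' t-test and the fit without moderation of the spread also called 0. Over all strains limma called 0.951% higher and 2.66% lower in acute over untreated, and 1.25% and 1.54% in adapted over acute. In the contrast it called 1.54% above 0 and 0.173% below, so 0 of 18 is close to these shares. Of 4625 strains the methods' t-test called 83 higher and 183 lower, 60 and 136, and 116 above and 12 below 0, in that order. Without moderation the counts were 21 and 49, 58 and 44, and 43 and 5. At an unadjusted p of 0.05, 3 of the 18 were higher and 3 lower in acute over untreated. In adapted over acute 0 were higher and 1 lower, and in the contrast there were 0. Over all strains at that p, 5.75% were higher and 6.9% lower in acute over untreated. In adapted over acute 4.45% were higher and 6.38% lower, and in the contrast 4.0% were above and 1.54% below 0. RTG2, the sensor of mitochondria-to-nucleus signalling, had an acute mean of −0.39 and MKS1, a negative regulator of that pathway, −0.39, both below 0 on 4 of 4 arrays (unadjusted p of 0.00826 and 0.0146, limma). The contrasts of RTG2 and MKS1 were 0.24 and 0.37. IXR1, a hypoxic regulator, and PUF3, which binds messages of mitochondrial proteins, had adapted means of −0.24 and −0.16. HAP1 was on the list and was not analysed here.

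The 26 strains of gluconeogenesis, the glyoxylate cycle and nonfermentable carbon use included many targets of Adr1 and Cat8. They likewise held 0 calls in all 3 comparisons by limma and by the methods' t-test. Without moderation of the spread 1 was called lower in acute over untreated. Over all strains limma called 0.951% higher and 2.66% lower in acute over untreated, and 1.25% and 1.54% in adapted over acute. In the contrast it called 1.54% above 0 and 0.173% below, so 0 of 26 is close to these shares. Of 4625 strains the methods' t-test called 83 higher and 183 lower, 60 and 136, and 116 above and 12 below 0, in that order. Without moderation the counts were 21 and 49, 58 and 44, and 43 and 5. At an unadjusted p of 0.05, 1 of the 26 was lower in acute over untreated, 1 lower in adapted over acute and 1 above 0 in the contrast. The shares of all strains there were 6.9%, 6.38% and 4.0%. ADY2, an acetate transporter, had an acute mean of −0.33 and a contrast of 0.49 (unadjusted p of 0.00792). DLD1, D-lactate dehydrogenase, had an adapted mean of −0.22. The carnitine acetyltransferases YAT1 (−0.12 in the acute comparison, 0.27 in the contrast) and YAT2 (−0.13 in adapted over acute) had the next lowest p. List medians were 0.02 in adapted over acute and −0.06 in acute over untreated, near the medians of all strains. Of the 26 acute means, 20 were below 0 (76.9%, against 54.7% of all strains).

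**Figure D4:**
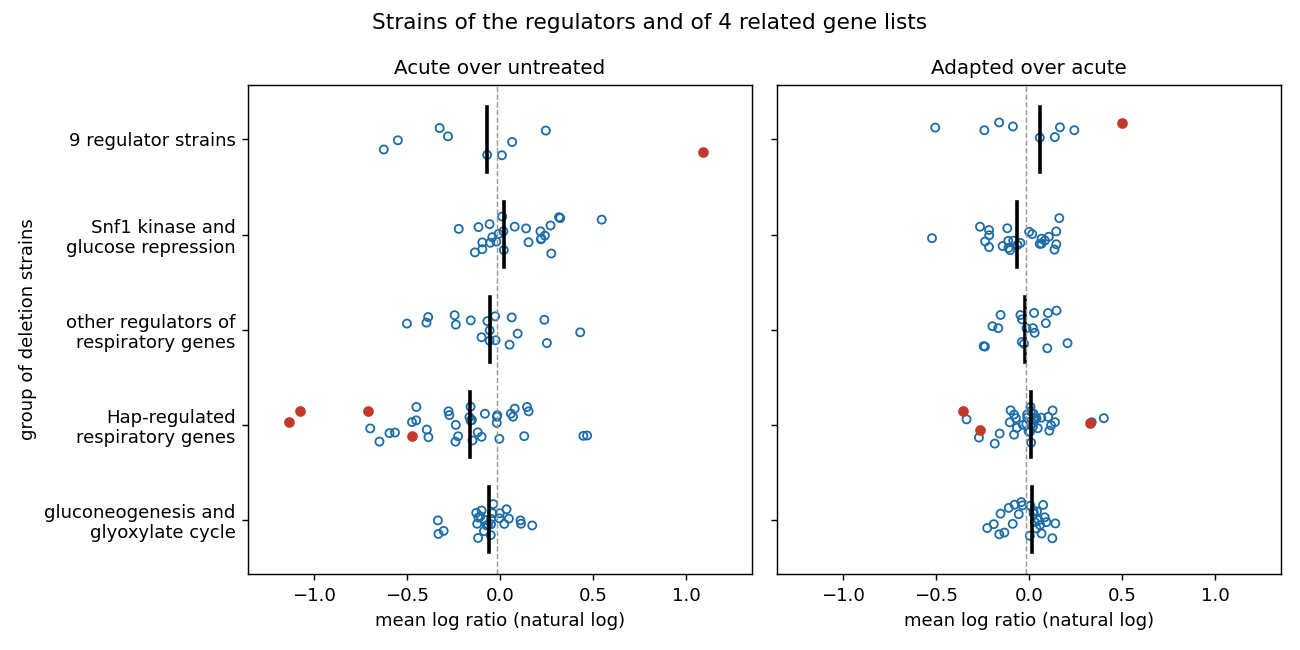
Mean log ratio (natural log) of single strains in acute over untreated (left) and adapted over acute (right), for the 9 regulator strains and the 4 gene lists. Filled red points passed an unadjusted p of 0.005, open points did not, black bars are list medians and the dashed line is the median of all strains. Hap-regulated respiratory genes have 4 red points, all below 0, on the left, and a median of −0.16.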

How the data were processed

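Barcode log ratios of a yeast haploid deletion pool were analysed on 10 arrays, each from its own culture. Spot log ratios were deposited by the authors after median and loess correction, and are read here as natural log values. Another base would rescale every value and leave every p as it is. All arrays hold values for 16850 of the 22575 spots, and 5725 spots are empty throughout. By the platform annotation 18794 spots have 1 gene symbol, 0 several and 3781 none, and 18786 were found among RefSeq genes. This gave 4625 strains, 4147 of them named, with both tags for 4492 and the first alone for 133. No source used here states which tag is the UPTAG.

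Spots with an ID up to 5400 kept their deposited sign and all others were turned. Up to that ID, 3475 replicate spots were the negative of their main spot (tolerance 1e-09), and past it 350 of the first set and all 3725 of the second set were equal. The overall direction follows an earlier reading of these data, which chose it by the order of the study's own table, so that order is no separate check. Replicate spots are copies and were counted once.

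The tags of a strain were averaged on each array. Quantile normalization followed, separately for the 2 sets of arrays. Means were tested against 0 with limma 3.58.1 (lmFit and eBayes) in R 4.3.3, two-sided, over all 4625 strains. The threshold was an unadjusted p of 0.005, as in the Methods, and adjusted p-values are Benjamini-Hochberg values over all strains. The fit was tested on simulated data. Differences between 8 pairs of strains were tested by an exact sign-flip permutation test per comparison. Plots were drawn with matplotlib 3.10.9 in Python 3.11.15, and tables with scipy 1.17.1, numpy 2.4.6 and pandas 2.3.3.

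The 9 strains and the 4 gene lists were chosen with earlier results of these data known. Named beside the 9 were YAP1 and SKN7, up to 4 strains past the threshold per list and comparison (otherwise the 2 of lowest p), the 5 strains most like the Hap mean and 3 most like each other called strain. Alternatives were other tags, normalization, tests, thresholds and signs, and leaving out each array. Intensities, growth curves and expression arrays were not used here. No sequences are printed.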

Additional observations from a re-analysis of the deposited data

Results flagged for a closer look

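In 18 groups of arrays (9 strains in 2 comparisons), 3 held an array that stood apart from the rest by the spacing of its values, where chance gives about 1 in 20. The SNF4 strain had −1.150 on adapted replicate 3, its lowest, against 0.207 to 0.732 on the other 5 adapted arrays. The same strain had 0.702 on acute replicate 3, its highest, against 0.065 to 0.128 on the other 3 acute arrays. The HAP2 strain had 0.123 on acute replicate 4, its highest, against −0.037 to −0.013 on the other 3.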

How the results depend on the processing

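Of the alternative values of the 9 strains, 337 kept their direction and side of the threshold. Another 17 changed sign, 12 newly passed and 6 no longer passed. Among the 337 are the means over all measured spots, which could not differ from the main values because replicate spots are copies. These counts leave out the setting with every deposited sign kept, which turned further signs. There SNF1 was −0.35 in acute over untreated and 0.53 in the contrast, and HAP3 was −0.04 in adapted over acute. Other values kept their sign there, such as those of RSF1 (−0.49 in acute over untreated and −0.21 in adapted over acute). The cause was not tested. In acute over untreated, the count of called regulator strains was 1. It was 3 at an unadjusted p of 0.05 (HAP3, HAP5 and SNF1) and 3 by the methods' t-test (HAP3, RSF1 and SNF1), 2 without quantile normalization (HAP3 and SNF1), and 0 at an adjusted p of 0.05, with first tags, with second tags, without moderation of the spread and with deposited signs. Counts at an adjusted p, here and below, are by limma. Leaving out 1 array gave a count of 0 to 1. In adapted over acute the count was 1, and also 1 with deposited signs, where it was HAP5 below 0 (−0.26) in place of HAP3. It was 3 at an unadjusted p of 0.05, 0 at an adjusted p of 0.05, and 2 without quantile normalization, with second tags, with named strains of both tags and without moderation (HAP3 and HAP5), and 2 by the methods' t-test (HAP3 and SNF1). Leaving out 1 array gave 1 to 3, with HAP3, HAP5 and SNF4 passing without adapted replicate 3. In the adaptive contrast the count was 0, 1 by the methods' t-test (RSF1), and 0 to 1 when 1 array was left out (SNF4, without adapted replicate 3). Of the 16 pair differences, 7 kept 1 sign on all arrays, and 4 with first tags.

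Sign changes with other tags were −0.0287 for HAP2 (acute over untreated, second tags), −0.033 for CAT8 (acute over untreated, first tags), −0.0145 for HAP3 and 0.0946 for SNF1 (contrasts with second and with first tags), and 0.031 for HAP2 minus HAP5 (adapted over acute, first tags). The CAT8 contrast was −0.16 without quantile normalization. Leaving out 1 array turned these signs. In acute over untreated, HAP2 ran from −0.0206 (without replicate 4) to 0.0238, ADR1 from −0.395 to 0.412 (without replicate 4) and CAT8 from −0.204 (without replicate 2) to 0.249. RSF1 in adapted over acute ran from −0.435 to 0.0426 (without replicate 2). Contrasts ran from −0.0789 (without acute replicate 4) to 0.515 for HAP4, from −0.0265 (without acute replicate 2, and −0.00284 without 4) to 0.106 for HAP5, and from −0.252 (without acute replicate 4) to 0.554 for ADR1. The CAT8 contrast ran from −0.164 to 0.289, below 0 without acute replicate 1, 3 or 4 or adapted replicate 1.

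Over all strains, acute calls (44 higher and 123 lower) became 20 and 56 with first tags, 21 and 49 without moderation, 83 and 183 by the methods' t-test and 13 and 10 with deposited signs. Adapted calls (58 higher and 71 lower) became 33 and 32, 58 and 44, 60 and 136, and 16 and 19 under the same settings, and contrast calls (71 above and 8 below 0) 42 and 2, 43 and 5, 116 and 12, and 10 and 4. Leaving out an array gave 13 to 43 higher and 66 to 86 lower acute calls, and 40 to 49 higher and 36 to 65 lower adapted calls, and 49 to 74 above and 3 to 9 below 0 in the contrast.

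Replicate numbers were not taken to pair the arrays, as each array is from its own culture. Deviations of same-numbered arrays correlated at −0.3395, 0.265, −0.1696 and −0.2358. These values cannot decide on pairing, since arrays of different number were not compared. With the replicate block the contrast called 0 regulator strains, and 65 strains above and 6 below 0.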
